A study of Rattus norvegicus with 6 samples.

Results

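The 40 genes described here carry out or control mitosis, the division of the duplicated chromosomes between daughter cells, and were chosen by name as mitosis and spindle genes. Each was matched to the row of the count table with that gene name. Of the 40, 39 were found among the 34225 loci of the table, each in 1 row, and Ccnb2 was not analysed here. RNA was sequenced from the back skin of Sprague-Dawley rats, which are outbred, with 2 libraries in each of 3 groups. Skin with a rash came from rats given gefitinib at 80 mg/kg by mouth once a day, or afatinib at 30 mg/kg by mouth once a day, each until a rash appeared, and it was set against skin of untreated rats. Both drugs block the kinase of EGFR, the receptor of epidermal growth factor, gefitinib reversibly and afatinib, which also acts on related receptors, by a covalent bond. The labels give no age or sex, no number of doses and no vehicle for the untreated rats, and do not say how many rats a library holds, so the p-values measure the spread between these libraries.

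Cells enter mitosis when cyclin-dependent kinase 1 (CDK1), bound to cyclin A or B, is switched on, and they leave it when the anaphase-promoting complex (APC/C) marks cyclin B and securin for destruction. In between, kinetochores built on the centromeres attach chromosomes to the spindle, and checkpoint kinases hold back the APC/C until every chromosome is attached. Transcripts of most of these genes build up in G2 and M phase, so in a tissue their level follows the share of dividing cells. In skin, such cells lie in the basal epidermis and, in growing hair, in the hair matrix. In bulk skin, fewer cells of a type and less RNA per cell cannot be told apart.

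The libraries held 17206456 to 22086673 counts. Afatinib replicate 1 stood apart from the other 3 inhibitor libraries. Its log2 levels over all tested genes, which are not independent replicates, correlated at r = 0.935 and 0.939 with the untreated libraries and at 0.925 with afatinib replicate 2. Basal keratinocyte markers (10 of 11 found, none at 0 in all libraries) were present throughout. Their summed level was 2668 and 2672 CPM with gefitinib, 2827 and 4522 CPM with afatinib and 1953 and 1345 CPM in untreated skin. CPM stands for read counts scaled to a common library size, after adjustment between libraries by TMM, a trimmed mean of ratios. Egfr itself was at 31.9 and 21.1 CPM with gefitinib, 9.23 and 53.6 CPM with afatinib and 12.6 and 10.5 CPM in untreated skin, and did not pass in any comparison (adjusted p of 0.18 to 0.931 in edgeR).

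Mitotic genes were higher in rash skin of both inhibitors. Summed over the 39 genes, the level was 1652 and 1729 CPM with gefitinib, 705 and 1463 CPM with afatinib, and 210 and 264 CPM in untreated skin. The gefitinib mean was 7.14 times and the afatinib mean 4.58 times the untreated mean. The 2 gefitinib libraries lay close together, whereas afatinib replicate 1 was at 2.98 times and replicate 2 at 6.18 times the untreated mean. In unscaled terms the genes took 0.213% (95% Wilson interval 0.211% to 0.215%) and 0.192% (0.190% to 0.194%) of all counts with gefitinib. They took 0.063% (0.0619% to 0.0642%) and 0.204% (0.202% to 0.206%) with afatinib, and 0.015% (0.0145% to 0.0156%) and 0.0205% (0.0199% to 0.0211%) in untreated skin. These intervals cover counting error only.

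The order of the libraries held gene by gene. For each of the 39 genes both gefitinib libraries were above both untreated libraries, which was true of 38.8% of the 16398 genes tested. Afatinib replicate 2 was likewise above both untreated libraries for all 39. Afatinib replicate 1 was above them for 38, the exception being Racgap1, so 38 of 39 separated in afatinib against untreated skin, beside 31.5% of all genes tested. Afatinib replicate 1 was also below the other 3 inhibitor libraries for all 39. The plot of levels by library shows this order. Of all genes tested, 8829 of the 16373 with a defined ratio were lower in afatinib replicate 1 than in replicate 2. The share of all genes below all 3 libraries was not counted.

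**Figure D1:**
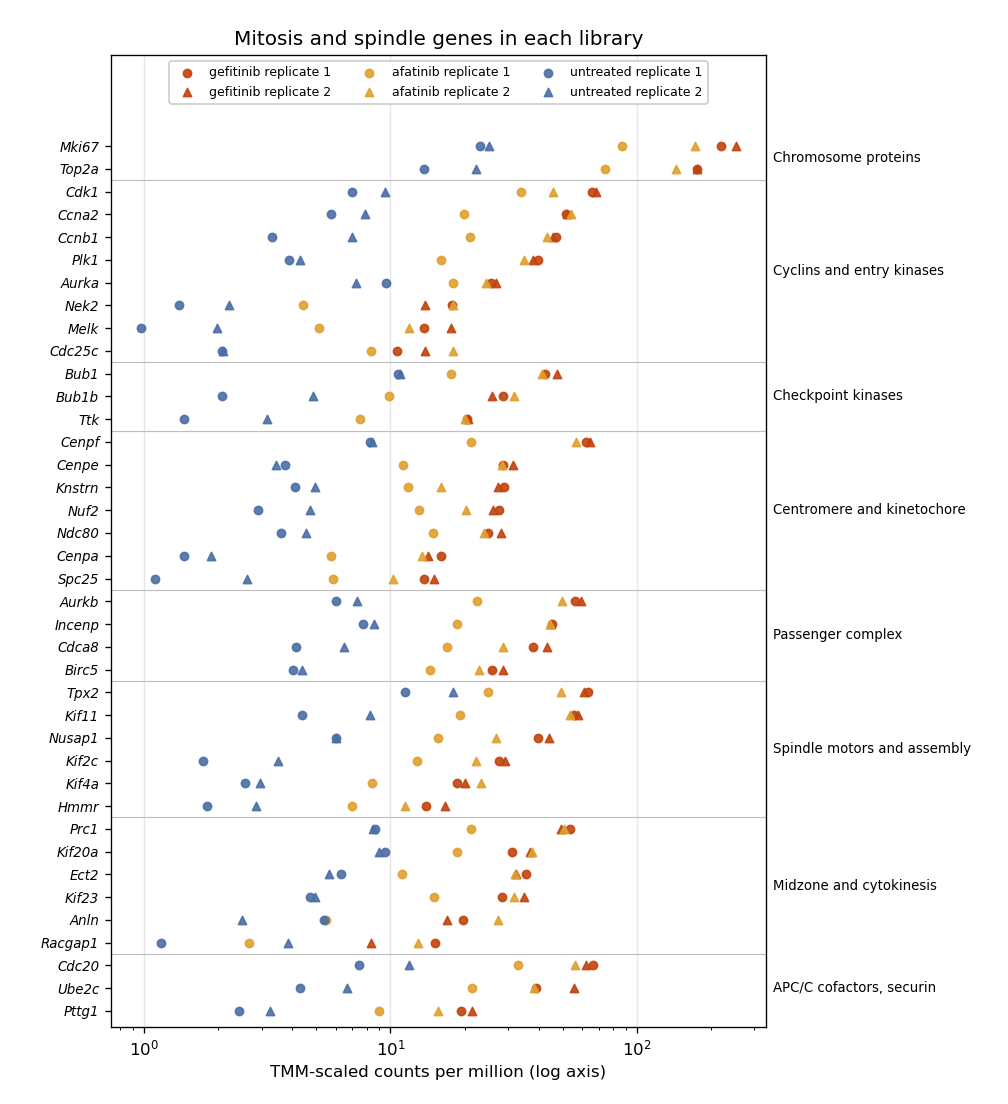
Level of each of the 39 genes in each of the 6 libraries, in TMM-scaled CPM on a log axis, grouped by role; colours give the group and marker shapes the replicate number. Gefitinib points lie right of both untreated points in every row, and afatinib replicate 1 lies between untreated skin and the other inhibitor libraries except for Racgap1, where it is below untreated replicate 2.

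In the test, 37 of the 39 genes rose with gefitinib, where 12.3% of all genes tested rose (edgeR's quasi-likelihood test, Benjamini-Hochberg adjusted p under 0.05 over all genes tested). The median log2 fold change was 2.84, with a range of 1.64 to 3.43, against a median of 0.04 over all genes. With afatinib 27 of 39 rose, where 3.6% of all genes did, with a median of 2.26 and a range of 1.33 to 2.74, against 0.09 over all genes. The mean of both inhibitors gave 37 of 39 higher, where 11% of all genes were higher, with a median of 2.52. No gene of the list fell in these comparisons, in which 5.45%, 0.372% and 4.93% of all genes tested fell with gefitinib, afatinib and their mean. The afatinib and gefitinib comparisons use the same untreated libraries.

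These calls depended on single libraries, as did those over all genes. With gefitinib, fewer members and fewer of all genes passed when any 1 gefitinib or untreated library was left out. Each such fit has 1 library in a group. The median log2 fold change of the members with gefitinib was 2.83 without gefitinib replicate 1 and 2.75 without gefitinib replicate 2. It was 2.68 and 3.11 without untreated replicate 1 and 2. With afatinib, more members and more of all genes passed without afatinib replicate 1, and fewer of both without any 1 of the other libraries. The member median with afatinib was 2.72 without afatinib replicate 1 and 1.58 without afatinib replicate 2. It was 2.16 without either gefitinib library, and 2.10 and 2.51 without untreated replicate 1 and 2. A fit on the afatinib and untreated libraries alone called 0 members with afatinib, where 44 of all genes rose. Limma-voom also called 0, where 32 of all genes rose. At an unadjusted p under 0.05 there were 38 and 37 members in these fits. DESeq2 called 38 members with afatinib, where 1478 of all genes rose. No member changed sign against untreated skin in any setting.

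Promoter windows at annotated starts of 33 of the 39 genes were in the RefSeq table for the rat assembly GRCr8. Windows ran from 250 bases before to 50 bases after the annotated start of transcription. Whether these starts, that of Aurka among them, are the ones used in skin was not tested. Aurkb, Ccna2, Incenp, Racgap1, Tpx2 and Ube2c had no entry, and Kif2c had 2 windows, which makes 34. As background, many mitotic genes are known to carry a cell cycle homology region, read as TTTGAA or TTTAAA, through which the DREAM repressor and the MYB-MuvB and FOXM1 activators act, and CCAAT boxes bound by the factor NF-Y. TTTGAA stood on either strand in 24 of the 34 windows (70.6%), against 18.3% of all 33469 windows of that length. TTTAAA, which reads the same on both strands, stood in 12 (35.3%), against 13.6%. CCAAT stood in 24 (70.6%), against 37.5%, and more than once in 19 (55.9%), against 11.2%. Either form of the homology region together with CCAAT was found in 23 (67.6%), against 11.3%. The E2F sites TTTCCCGC, TTTGGCGC and TTTCGCGC were found on either strand in 1 window, that of Cdk1 (2.94%), against 1.72%. A match is a description of these letters, and a window without one says nothing of the factor.

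The windows of the 2 chromosome proteins, of cyclin B1 and CDK1, and of Aurka are shown 5′ to 3′ on the strand of the gene. Capitals mark the motifs named above; CCAAT on the other strand appears as ATTGG and TTTGAA as TTCAAA, and in Mki67 a TTTGAA and an ATTGG share bases.
Mki67 (GRCr8, chr1:199952544-199952843, minus strand): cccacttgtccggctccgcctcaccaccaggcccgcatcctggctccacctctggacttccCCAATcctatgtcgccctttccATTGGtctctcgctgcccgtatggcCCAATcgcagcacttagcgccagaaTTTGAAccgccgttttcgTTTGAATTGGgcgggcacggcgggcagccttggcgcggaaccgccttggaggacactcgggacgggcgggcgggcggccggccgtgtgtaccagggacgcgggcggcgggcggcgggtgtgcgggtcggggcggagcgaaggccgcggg
Top2a (GRCr8, chr10:84473044-84473343, minus strand): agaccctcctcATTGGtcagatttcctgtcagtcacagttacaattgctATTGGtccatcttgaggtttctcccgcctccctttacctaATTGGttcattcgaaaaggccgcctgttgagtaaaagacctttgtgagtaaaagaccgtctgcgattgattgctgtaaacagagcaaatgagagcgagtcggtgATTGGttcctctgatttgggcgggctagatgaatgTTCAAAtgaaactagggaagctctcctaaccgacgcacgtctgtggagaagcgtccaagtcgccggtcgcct
Ccnb1 (GRCr8, chr2:33655176-33655475, minus strand): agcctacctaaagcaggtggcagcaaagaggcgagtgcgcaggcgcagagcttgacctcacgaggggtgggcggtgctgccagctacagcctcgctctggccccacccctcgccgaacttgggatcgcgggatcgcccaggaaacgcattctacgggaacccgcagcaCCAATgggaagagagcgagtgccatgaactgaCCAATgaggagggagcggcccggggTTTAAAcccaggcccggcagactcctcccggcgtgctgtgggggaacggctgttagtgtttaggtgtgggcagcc
Cdk1 (GRCr8, chr20:19265043-19265342, plus strand): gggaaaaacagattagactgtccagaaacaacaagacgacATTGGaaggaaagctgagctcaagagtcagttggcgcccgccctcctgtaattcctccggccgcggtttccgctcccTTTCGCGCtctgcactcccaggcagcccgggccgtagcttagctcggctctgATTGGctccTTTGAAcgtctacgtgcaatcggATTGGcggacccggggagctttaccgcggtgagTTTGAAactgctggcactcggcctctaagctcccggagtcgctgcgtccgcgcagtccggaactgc
Aurka (GRCr8, chr3:181560720-181561019, minus strand): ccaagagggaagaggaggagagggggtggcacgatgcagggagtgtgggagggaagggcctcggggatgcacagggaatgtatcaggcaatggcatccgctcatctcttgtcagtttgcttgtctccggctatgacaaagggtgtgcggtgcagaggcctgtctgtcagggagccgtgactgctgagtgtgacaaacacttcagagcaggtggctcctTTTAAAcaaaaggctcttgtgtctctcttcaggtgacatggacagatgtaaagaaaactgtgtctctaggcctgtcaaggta
Positions count from the annotated start of transcription and give the first base of a motif. In Ccnb1 the CCAAT boxes at -82 and -50 precede the TTTAAA at -25. Cdk1 holds TTTGAA at -72 and -16, and its E2F letters lie at -133. The window at the annotated Aurka start holds TTTAAA at -32 and no CCAAT. It reads ctcttcag directly before that start and an ATG shortly after it, the letters of a splice site and a start codon. This window may therefore not be the promoter of Aurka. Its letters are not read as those of a promoter, although the counts above include it. Kif2c, with the largest fold change with each drug, holds a TTTAAA at -19 in 1 of its windows and no CCAAT. Melk, the next with gefitinib, holds none of the motifs. Whether the motifs go with the fold changes was not tested.

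Among chromosome proteins, Mki67 (ENSRNOG00000028137, chromosome 1, 207993895 to 208020454 in the files' coordinates; the sources used here do not name their build), which coats mitotic chromosomes and marks cycling cells, was at 219 and 253 CPM with gefitinib, 86.9 and 172 CPM with afatinib, and 23.2 and 25.2 CPM in untreated skin. The untreated values rest on 335 and 433 counts. Mki67 rose by a log2 fold change of 3.29 ± 0.394 with gefitinib (SE; adjusted p = 0.00986 in edgeR) and 2.42 ± 0.38 with afatinib (adjusted p = 0.032). Top2a (ENSRNOG00000053047, chromosome 10, 86901007 to 86932154), which untangles sister chromatids, was at 176 CPM in both gefitinib libraries, 74.5 and 144 CPM with afatinib, and 13.6 and 22.2 CPM in untreated skin. It rose by 3.29 ± 0.421 with gefitinib (adjusted p = 0.0105) and 2.60 ± 0.409 with afatinib (adjusted p = 0.032). The groups did not overlap for either gene.

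Of the 8 cyclins and kinases of mitotic entry, all 8 rose with gefitinib (median log2 fold change 3.07) and 5 with afatinib (median 2.58). Ccnb1, cyclin B1, was at 47.1 and 45.6 CPM with gefitinib, 21.0 and 43.3 CPM with afatinib, and 3.32 and 6.98 CPM in untreated skin (log2 fold change 3.16 ± 0.476 and 2.64 ± 0.467, adjusted p = 0.0126 and 0.0368 in edgeR for gefitinib and afatinib). Cdk1, its kinase, was at 65.5 and 68.6 CPM with gefitinib, 33.8 and 45.9 CPM with afatinib, and 6.98 and 9.48 CPM in untreated skin. Cdk1 rose by 3.02 ± 0.288 with gefitinib and 2.27 ± 0.281 with afatinib, with the smallest adjusted p of the list in each (0.00824 and 0.0241 in edgeR). Ccna2, cyclin A2, was at 51.4 and 52.0 CPM with gefitinib, 19.8 and 54.3 CPM with afatinib, and 5.74 and 7.91 CPM in untreated skin. Its whole span of 6334 bases lies under Exosc9 on the opposite strand, and as the strand of counting is not given, reads of the pair may not have been separated.

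Plk1, the polo-like kinase that acts at centrosomes, kinetochores and the midzone, was at 39.8 and 38.0 CPM with gefitinib, 16.1 and 34.9 CPM with afatinib, and 3.87 and 4.31 CPM in untreated skin. Plk1 rose by 3.25 ± 0.407 with gefitinib (adjusted p = 0.0105 in edgeR) and 2.64 ± 0.399 with afatinib (adjusted p = 0.0315). Cdc25c, the phosphatase that activates CDK1, had 10.7 and 13.9 CPM with gefitinib, 8.32 and 18.0 CPM with afatinib, and 2.07 and 2.09 CPM in untreated skin. Its highest library was afatinib replicate 2, and it rose with both drugs (2.55 ± 0.459, adjusted p = 0.0165, and 2.66 ± 0.461, adjusted p = 0.0352, for gefitinib and afatinib in edgeR).

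Aurka, the aurora kinase of the centrosome and spindle poles, had the smallest rise of the 39 genes with gefitinib. It was at 25.6 and 26.7 CPM with gefitinib, 17.9 and 24.5 CPM with afatinib, and 9.61 and 7.21 CPM in untreated skin. Aurka rose by 1.64 ± 0.291 with gefitinib (adjusted p = 0.0161 in edgeR) and stood at 1.34 ± 0.29 with afatinib (adjusted p = 0.0519). The groups did not overlap. Nek2, a kinase that separates centrosomes, rose by 3.12 ± 0.678 with gefitinib (adjusted p = 0.0256 in edgeR) and stood at 2.63 ± 0.669 with afatinib (adjusted p = 0.0743). It had 17.7 and 13.8 CPM with gefitinib, 4.42 and 17.9 CPM with afatinib, and 1.38 and 2.21 CPM in untreated skin, so its afatinib libraries lay far apart. Melk, a kinase whose mitotic role is less settled, had 13.7 and 17.7 CPM with gefitinib, 5.13 and 11.9 CPM with afatinib, and 0.968 and 1.98 CPM in untreated skin, from 14 and 34 counts. Melk had the second largest gefitinib fold change (3.40 ± 0.563, adjusted p = 0.015 in edgeR) and stood at 2.52 ± 0.55 with afatinib (adjusted p = 0.0523).

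All 3 checkpoint kinase genes rose with gefitinib and none passed with afatinib (adjusted p of 0.0528 to 0.0881 in edgeR; for afatinib DESeq2 called 38 of the 39 genes and limma-voom 0). Bub1, a kinase that recruits checkpoint proteins to kinetochores, was at 42.3 and 47.4 CPM with gefitinib, 17.5 and 41.3 CPM with afatinib, and 10.7 and 10.9 CPM in untreated skin. Its log2 fold change was 2.05 ± 0.403 with gefitinib (adjusted p = 0.0199) and 1.44 ± 0.398 with afatinib (adjusted p = 0.0881), among the 5 smallest of the list in both. Bub1b, whose product BubR1 binds and inhibits the APC/C, was at 28.5 and 25.8 CPM with gefitinib, 9.88 and 31.7 CPM with afatinib, and 2.07 and 4.83 CPM in untreated skin. Its log2 fold changes were 2.96 ± 0.624 (adjusted p = 0.0236) and 2.58 ± 0.617 (adjusted p = 0.0641) for gefitinib and afatinib in edgeR. Ttk, the kinase Mps1 that starts checkpoint signalling, was at 20.5 and 20.6 CPM with gefitinib, 7.54 and 20.1 CPM with afatinib, and 1.45 and 3.14 CPM in untreated skin. Its log2 fold changes were 3.15 ± 0.574 (adjusted p = 0.017) and 2.58 ± 0.565 (adjusted p = 0.0528) for gefitinib and afatinib in edgeR. For these 3 genes afatinib replicate 2 was close to the gefitinib libraries and replicate 1 was far below them.

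Of the 7 centromere and kinetochore genes all 7 rose with gefitinib (median 2.93) and 6 with afatinib (median 2.23). Cenpa, the histone H3 variant that marks centromeres, was at 16.0 and 14.3 CPM with gefitinib, 5.72 and 13.4 CPM with afatinib, and 1.45 and 1.86 CPM in untreated skin. Cenpf, a large kinetochore protein, was at 62.1 and 64.8 CPM with gefitinib, 21.2 and 56.9 CPM with afatinib, and 8.23 and 8.44 CPM in untreated skin. The NDC80 complex, which grips microtubules, was measured by Ndc80, Nuf2 and Spc25. Their gefitinib log2 fold changes were 2.70 ± 0.339, 2.80 ± 0.369 and 2.93 ± 0.515, within 1 SE of each other. With afatinib they were 2.26 ± 0.335, 2.13 ± 0.362 and 2.10 ± 0.505, and Spc25 did not pass (adjusted p = 0.0652 in edgeR). Spc25 was at 13.6 and 15.1 CPM with gefitinib, 5.85 and 10.3 CPM with afatinib, and 1.11 and 2.62 CPM in untreated skin, from 16 and 45 counts there. Knstrn, a small protein of kinetochores and the spindle, was at 28.9 and 27.4 CPM with gefitinib, 11.8 and 16.0 CPM with afatinib, and 4.08 and 4.95 CPM in untreated skin (2.64 ± 0.299, adjusted p = 0.00971, and 1.62 ± 0.292, adjusted p = 0.0369, for gefitinib and afatinib in edgeR).

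All 4 genes of the chromosomal passenger complex, which corrects faulty attachments and later moves to the midzone, rose with both drugs. Aurkb, its kinase, was at 56.0 and 59.1 CPM with gefitinib, 22.5 and 49.6 CPM with afatinib, and 6.02 and 7.33 CPM in untreated skin (3.11 ± 0.404, adjusted p = 0.0105, and 2.43 ± 0.395, adjusted p = 0.0323, for gefitinib and afatinib in edgeR). The scaffold gene Incenp had 45.2 and 44.8 CPM with gefitinib, 18.6 and 44.3 CPM with afatinib, and 7.75 and 8.61 CPM in untreated skin. The targeting subunits Birc5, survivin, and Cdca8, borealin, rose by 2.70 and 2.93 with gefitinib and by 2.16 and 2.10 with afatinib. Aurkb rose more than its relative Aurka, by 3.11 against 1.64 with gefitinib, a gap that was larger than the SEs of 0.404 and 0.291; the difference between the genes was not tested.

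Of the 6 spindle motors and assembly factors all 6 rose with gefitinib and 5 with afatinib. Kif2c, a kinesin that takes microtubules apart at centromeres, had the largest log2 fold change of the list with each drug (3.43 ± 0.445, adjusted p = 0.0105, and 2.74 ± 0.436, adjusted p = 0.0321, for gefitinib and afatinib in edgeR). It was at 27.6 and 29.2 CPM with gefitinib, 12.8 and 22.3 CPM with afatinib, and 1.73 and 3.49 CPM in untreated skin, from 25 and 60 counts there. Kif11, the motor that pushes the poles apart, was at 55.8 and 57.8 CPM with gefitinib, 19.2 and 53.8 CPM with afatinib, and 4.36 and 8.26 CPM in untreated skin. The chromokinesin gene Kif4a, the microtubule bundler gene Nusap1 and the hyaluronan receptor gene Hmmr, which also acts at spindle poles, rose by 2.81, 2.80 and 2.71 with gefitinib and by 2.52, 1.82 and 1.98 with afatinib.

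Tpx2, which activates AURKA on the spindle, was the exception in this group. It was at 63.3 and 61.3 CPM with gefitinib, 24.9 and 49.1 CPM with afatinib, and 11.4 and 18.0 CPM in untreated skin. Tpx2 rose by 2.08 ± 0.386 with gefitinib (adjusted p = 0.0176 in edgeR) and stood at 1.33 ± 0.379 with afatinib (adjusted p = 0.0966), the smallest afatinib value of the list.

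The midzone and cytokinesis genes had the lowest median of the 8 roles with gefitinib (2.36) and afatinib (1.96), and 4 and 2 of 6 rose. Prc1, which bundles midzone microtubules, was at 53.6 and 49.5 CPM with gefitinib, 21.3 and 50.7 CPM with afatinib, and 8.64 and 8.49 CPM in untreated skin, and rose with both drugs. So did Kif23, the motor of the centralspindlin complex (2.71 and 2.28 for gefitinib and afatinib). Racgap1, its partner, had 15.2 and 8.36 CPM with gefitinib, 2.66 and 13.0 CPM with afatinib, and 1.18 and 3.84 CPM in untreated skin. Afatinib replicate 1 lay between the 2 untreated libraries, and Racgap1 passed with neither drug (2.22 ± 0.839, adjusted p = 0.103, and 1.64 ± 0.829, adjusted p = 0.297, for gefitinib and afatinib in edgeR).

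Anln, anillin of the contractile ring, also passed with neither drug (2.22 ± 0.733, adjusted p = 0.0746, and 2.07 ± 0.73, adjusted p = 0.159, in edgeR). It had 19.7 and 16.9 CPM with gefitinib, 5.46 and 27.3 CPM with afatinib, and 5.39 and 2.50 CPM in untreated skin. The afatinib libraries differed by more than for any other member, replicate 1 being at 0.2 times replicate 2. Ect2, which activates RhoA at the cleavage plane, was at 35.4 and 32.4 CPM with gefitinib, 11.2 and 32.1 CPM with afatinib, and 6.29 and 5.64 CPM in untreated skin. It rose with gefitinib (2.51 ± 0.484, adjusted p = 0.0191) and stood at 1.86 ± 0.476 with afatinib (adjusted p = 0.0748 in edgeR). Kif20a, a motor that carries the passenger complex to the midzone, was at 31.3 and 36.9 CPM with gefitinib, 18.6 and 37.7 CPM with afatinib, and 9.54 and 8.96 CPM in untreated skin. Kif20a rose by 1.88 ± 0.365 with gefitinib (adjusted p = 0.0193) and stood at 1.61 ± 0.363 with afatinib (adjusted p = 0.056 in edgeR). Cdc23 lies across 1910 bases of Kif20a on the opposite strand, so their reads may not have been separated.

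The 3 genes of the exit from mitosis rose with both drugs. Cdc20, the activator of the APC/C, was at 66.6 and 62.3 CPM with gefitinib, 32.9 and 55.9 CPM with afatinib, and 7.47 and 11.9 CPM in untreated skin. Ube2c, the ubiquitin-conjugating enzyme that serves it, was at 39.0 and 55.7 CPM with gefitinib, 21.5 and 38.1 CPM with afatinib, and 4.29 and 6.69 CPM in untreated skin. Pttg1, securin, which holds back separase, was at 19.3 and 21.4 CPM with gefitinib, 8.97 and 15.5 CPM with afatinib, and 2.42 and 3.26 CPM in untreated skin.

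**Figure D2:**
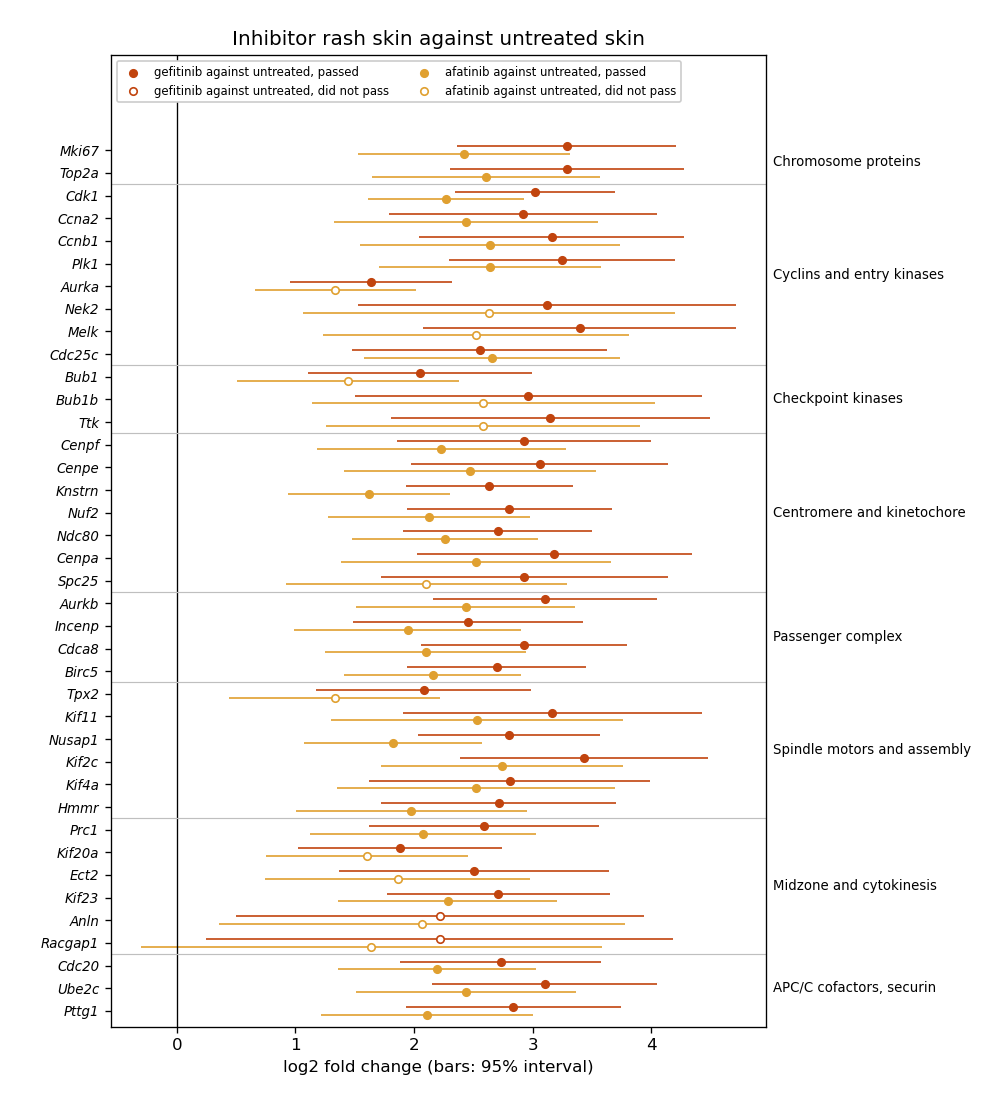
Log2 fold change of each gene in gefitinib and in afatinib rash skin against untreated skin, with 95% intervals; filled points passed the test over all genes at an adjusted p under 0.05 and open points did not. Every point lies right of 0, afatinib lies left of gefitinib for all genes but Cdc25c, and the interval of Racgap1 with afatinib is the one that reaches below 0.

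Levels can be compared between genes per length, in the deposited FPKM, whose divisors differ from the library totals. Cdk1 had the highest level of the list with 46.8 ± 2.26 FPKM with gefitinib, 27.1 ± 5.22 FPKM with afatinib and 5.91 ± 1.29 FPKM in untreated skin (mean ± SD, n = 2 each). Next with gefitinib came Top2a (31.0 ± 0.488 FPKM), Birc5 (30.8 ± 2.57), Cdc20 (29.0 ± 0.927) and Ccnb1 (28.4 ± 0.221), and each neighbouring pair among these 4 differed by less than the SD of one of the pair. The lowest level with gefitinib was that of Cdc25c, with 3.66 ± 0.732 FPKM, and Cenpe, Racgap1 and Kif4a lay within its spread. Aurka was at rank 22 of 39 with gefitinib (10.9 ± 0.507 FPKM), rank 15 with afatinib (8.64 ± 1.71 FPKM) and rank 5 in untreated skin (3.61 ± 0.715 FPKM). Tpx2 was at rank 10, 12 and 3 in gefitinib, afatinib and untreated skin. Kif2c was at rank 25, 25 and 30 in gefitinib, afatinib and untreated skin.

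The mixture of mitotic transcripts can be compared without any scaling between libraries, as the percent that a gene takes of the summed level of the 39 genes. Bub1 took 2.56% and 2.74% with gefitinib, 2.49% and 2.82% with afatinib, and 5.11% and 4.15% in untreated skin. Aurka took 1.55% in both gefitinib libraries, 2.54% and 1.68% with afatinib, and 4.58% and 2.74% in untreated skin. Kif20a took 1.89% and 2.14% with gefitinib, 2.64% and 2.57% with afatinib, and 4.55% and 3.40% in untreated skin. Tpx2 took 3.83% and 3.54% with gefitinib, 3.53% and 3.35% with afatinib, and 5.44% and 6.82% in untreated skin. With Incenp and Knstrn, these were the 6 genes whose share was lower in every inhibitor library than in either untreated library.

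For 6 genes the share was higher in every inhibitor library than in either untreated library, namely Mki67, Top2a, Aurkb, Plk1, Cenpa and Kif2c, and the shares of the other 27 overlapped. Top2a took 10.6% and 10.2% with gefitinib, 10.6% and 9.81% with afatinib, and 6.49% and 8.43% in untreated skin. Kif2c took 1.67% and 1.69% with gefitinib, 1.82% and 1.53% with afatinib, and 0.824% and 1.32% in untreated skin. The passenger complex as a whole took 9.99% and 10.2% with gefitinib, 10.3% and 9.93% with afatinib, and 10.4% and 10.2% in untreated skin, so its part of the mixture overlapped between the groups. The shares follow from the same counts as the fold changes and are given as a description. As parts of the same sum, a higher share of some genes lowers that of others. How many genes would separate in this way by chance was not tested.

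**Figure D3:**
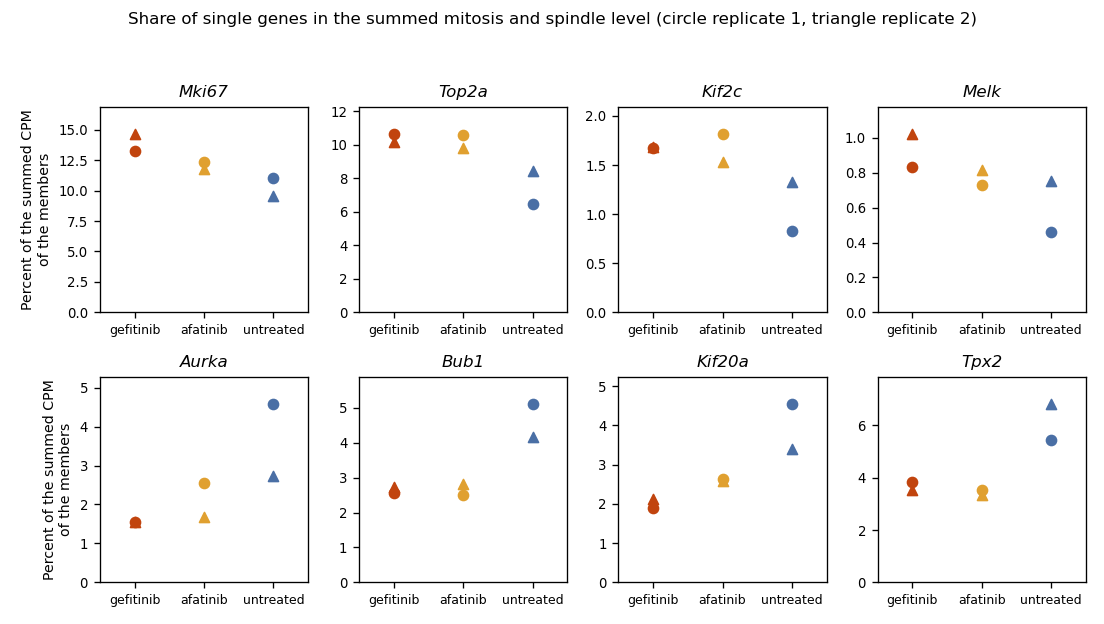
Percent that each of 8 genes takes of the summed TMM-scaled level of the 39 genes in each library, with the axis of each panel starting at 0; circles are replicate 1 and triangles replicate 2. Aurka, Bub1, Kif20a and Tpx2 have lower shares in the 4 inhibitor libraries than in the 2 untreated ones, Mki67, Top2a and Kif2c have higher ones, and those of Melk overlap between afatinib and untreated skin.

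Afatinib against gefitinib asks whether mitotic genes differ between the drugs' rashes, at doses that differ and at times that may differ too. No member passed in either direction, as 0% of all genes did (edgeR, with 5 members and 946 of all genes at an unadjusted p under 0.05; DESeq2 and limma-voom also called 0 members). The log2 differences ran from -1.01 to 0.11 with a median of -0.61, against 0.04 over all genes, and 29 genes were lower in both afatinib libraries than in both gefitinib libraries, beside 19.9% of all genes tested; 0 were higher in both, beside 17.1%. The smallest p belonged to Knstrn, at -1.01 (95% interval -1.67 to -0.36, adjusted p = 0.787 in edgeR), followed by Nusap1 at -0.98 (-1.69 to -0.26) and Cdk1 at -0.75 (-1.37 to -0.13). Cdc25c was the one gene on the other side of 0, at 0.11 (-0.88 to 1.09). Ccnb1 was at -0.52 (-1.53 to 0.49) and Aurkb at -0.67 (-1.53 to 0.19). The intervals of 34 of the 39 genes held 0, which does not show that the drugs act alike.

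The gap rested largely on afatinib replicate 1. Without it the median difference was -0.16, and without afatinib replicate 2 it was -1.26. Afatinib replicate 2 was itself below both gefitinib libraries for 29 genes and above both for 7, and its median ratio to the gefitinib mean was 0.897. The shares of all genes in these positions were not counted. Afatinib replicate 1 had a median ratio of 0.414 to the gefitinib mean and of 3.14 to the untreated mean.

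Other genes of mitosis rose in part, and by list to different extents. Of 137 further genes found, from lists of kinetochore, checkpoint and APC/C, condensin and cohesin, spindle and centrosome, cytokinesis and entry control genes, 79 rose and 2 fell with gefitinib (median log2 fold change 1.92), where 12.3% and 5.45% of all genes tested did. With afatinib 43 rose and 0 fell (median 1.48), where 3.6% and 0.372% of all genes did (85 of the 137 were at an unadjusted p under 0.05 in either direction, in edgeR). Among kinetochore genes 22 of 29 rose with gefitinib and 9 with afatinib, among them Cenpt (3.19 and 2.65) and Spc24 (2.53 and 1.87), the fourth subunit of the NDC80 complex. Among spindle and centrosome genes 21 of 29 rose with gefitinib and 16 with afatinib, among them Kif22 (3.05 and 2.34), Kifc1 (2.88 and 2.10) and Tacc3 (3.01 and 2.45).

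Condensin and cohesin genes had 12 of 21 higher with gefitinib and 5 with afatinib, including the condensin subunit gene Ncaph (3.38 and 2.96) and Sgo1, the protector of centromeric cohesion (2.98 and 2.36). Of 21 checkpoint and APC/C genes 4 rose with gefitinib and 3 with afatinib, and their medians of 0.36 and 0.22 were nearer to those of all genes; with gefitinib the count is near the 12.3% of all genes that rose. Those that rose with gefitinib were Mad2l1 (2.75), Trip13 (3.28) and Bub3 of the checkpoint and Fbxo5 (2.59), an inhibitor of the APC/C. Core APC/C subunits did not pass, among them Anapc2 (-0.23) and Anapc5 (-0.43, the lowest value of this list with gefitinib). Of 14 other cytokinesis genes 6 rose and 1 fell with gefitinib, and 4 rose with afatinib, where 3.6% of all genes rose. The 1 that fell is near the 5.45% of all genes that fell with gefitinib. It was Kif13b, a plus-end motor (-1.23, adjusted p = 0.0265 in edgeR).

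Control genes of entry had 14 of 23 higher and 1 lower with gefitinib, where 12.3% of all genes tested rose and 5.45% fell. The 1 that was lower is thus near the share of all genes. With afatinib 6 were higher, where 3.6% of all genes rose. Foxm1, a transcription factor that drives mitotic genes, was at 20.5 and 23.7 CPM with gefitinib, 11.4 and 23.3 CPM with afatinib, and 4.01 CPM in both untreated libraries (2.46 ± 0.396, adjusted p = 0.014, and 2.11 ± 0.393, adjusted p = 0.0388, for gefitinib and afatinib in edgeR). Cks2, a small subunit of CDK complexes, rose by 2.88 with gefitinib and 2.27 with afatinib. Rbl2, the pocket protein p130 of the DREAM repressor, was at 37.0 and 53.6 CPM with gefitinib, 53.4 and 43.3 CPM with afatinib, and 94.9 and 98.7 CPM in untreated skin. Rbl2 fell by 1.10 with gefitinib (SE 0.272, adjusted p = 0.0364) and did not pass with afatinib (adjusted p = 0.0859 in edgeR).

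DNA replication genes of S phase were higher too, at the median by less than the 39 members. Their medians were near those of the 137 further genes of mitosis (1.92 with gefitinib and 1.48 with afatinib). Of 39 such genes 34 rose with gefitinib (median 1.95) and 10 with afatinib (median 1.42), where 12.3% and 3.6% of all genes tested did. Among them were the helicase gene Mcm3 (3.07 and 2.45) and the thymidine kinase gene Tk1 (2.28 and 1.70). At an unadjusted p under 0.05 in edgeR there were 38 and 35 of the 39, beside 6106 and 3591 of the 16398 genes tested. Per 100 CPM of summed replication genes, the mitotic genes summed to 112 and 117 CPM with gefitinib, 85.6 and 115 CPM with afatinib, and 52.9 and 55.6 CPM in untreated skin. This ratio does not depend on scaling between libraries, and it was higher in each inhibitor library than in both untreated libraries.

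Marker lists of other compartments differed in how far they moved; of all genes tested, 12.3% rose and 5.45% fell with gefitinib, and 3.6% rose and 0.372% fell with afatinib. All 18 hair matrix and follicle markers rose with gefitinib and 9 of 18 with afatinib, and their summed level was 6259 and 4925 CPM with gefitinib, 1469 and 4974 CPM with afatinib, and 106 and 359 CPM in untreated skin. Of the 10 basal keratinocyte markers 4 rose and 1 fell with gefitinib and 1 rose with afatinib. Per 100 CPM of summed basal markers the mitotic genes summed to 61.9 and 64.7 CPM with gefitinib, 24.9 and 32.4 CPM with afatinib, and 10.7 and 19.6 CPM in untreated skin. The basal sums include Dst, which went against their direction and so widens this contrast. Dst was at 105 and 124 CPM with gefitinib, 294 and 225 CPM with afatinib, and 384 and 447 CPM in untreated skin. All 6 stress keratinocyte markers found, which include keratins of wounded epidermis, rose with each drug (median log2 fold change 6.40 with gefitinib and 7.69 with afatinib). They summed to 1467 and 1840 CPM with gefitinib, 2398 and 2360 CPM with afatinib, and 51.7 and 99.8 CPM in untreated skin, so that here afatinib replicate 1 was not below the other inhibitor libraries. Of 7 suprabasal keratinocyte markers 4 rose with gefitinib and 3 with afatinib. Of 9 endothelial markers 4 fell with gefitinib (median -1.40) and 0 with afatinib (median -0.73, edgeR). Of 5 neutrophil markers tested 2 rose with gefitinib (median 2.86) and 2 with afatinib (median 4.38). At an unadjusted p under 0.05 in edgeR there were 3 and 5 of them. The 8 neutrophil markers found were low, with sums of 5.88 and 5.64 CPM in untreated skin. Of 8 fibroblast markers 1 rose with gefitinib, a share near that of all genes, and 0 fell. Their median log2 fold change was -1.07 with gefitinib and -0.36 with afatinib. They summed to 6115 and 1241 CPM with gefitinib, 8779 and 3233 CPM with afatinib, and 21066 and 9988 CPM in untreated skin. Of 8 sebaceous or fat markers 2 rose with gefitinib. None of either list passed with afatinib. None of 10 macrophage or 2 B cell markers tested passed with either drug. Skeletal muscle markers, of which 21 of 25 were found and 1 fell with each drug, a share near that of all genes with gefitinib, summed to 50782 and 101256 CPM with gefitinib, 215353 and 48847 CPM with afatinib, and 337383 and 300549 CPM in untreated skin. T and NK cell markers, of which 13 of 14 were found, 11 tested and 1 rose with each drug, no more than the share of all genes with gefitinib, summed to 15.9 and 12.1 CPM with gefitinib, 30.6 and 23.9 CPM with afatinib, and 19.5 and 9.19 CPM in untreated skin, so that gefitinib lay between the untreated libraries and afatinib above both. None of these markers was at 0 in all libraries, and the part of these compartments in the rise of mitotic genes was not tested. With the muscle markers left out of the table and the library sizes, the counts of members that rose were 37, 27 and 37 for gefitinib, afatinib and their mean.

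**Figure D4:**
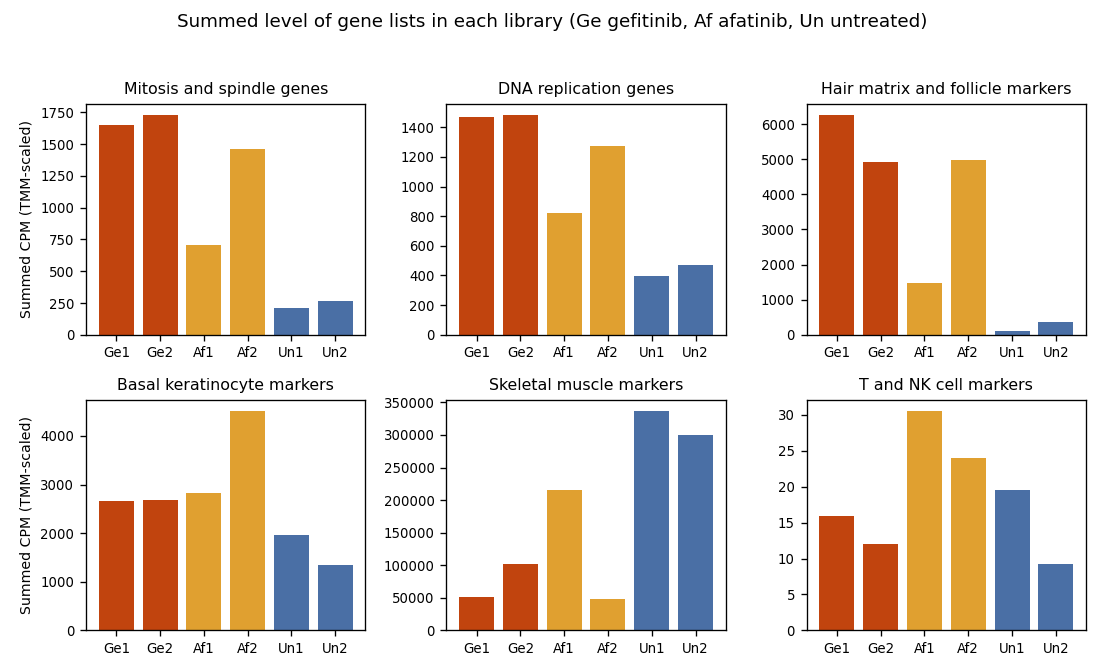
Summed TMM-scaled level of the 39 mitotic genes and of 5 other lists in each library (Ge gefitinib, Af afatinib, Un untreated, with the replicate number), on linear axes from 0. In the hair matrix and DNA replication lists, as in the mitotic genes, every inhibitor library is above both untreated libraries and afatinib replicate 1 is the lowest of the inhibitor libraries, and the muscle list has its 3 highest values in the untreated libraries and afatinib replicate 1.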

How the data were processed

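TruSeq RNA libraries were made from total RNA of frozen back skin, per the labels' protocols. The submitters' processing notes list DESeq2 1.16.1, HISAT2 2.0.5 and featureCounts 1.5.0-p3 without roles, and no source used here names the genome build or strand setting. The deposited counts are whole reads per gene, not scaled. In the deposited FPKM the authors had scaled each count to gene length and to 1 factor per library.

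The members and lists were chosen with earlier results of these data known. Counts of 16398 genes that passed filterByExpr, all 39 members among them, were scaled by TMM and fitted over all 6 libraries with edgeR 4.0.16 (quasi-likelihood, 1 term per group, 3 residual degrees of freedom, R 4.3.3). Tests were two-sided, with p adjusted by Benjamini-Hochberg over all genes. SEs come from the F statistic. The 1342 loci without a gene name (1.68% to 2.54% of counts) stayed in. Members with full statistics were the 5 largest and 5 smallest fold changes per comparison, those that did not pass, and Mki67, Top2a, Ccnb1, Cdk1 and Aurkb. The fit was run on 5 simulated sets, each with 200 genes changed and the same spread for all genes. Such sets do not show how the fit handles a library that stands apart. Alternatives were other scaling, filters, DESeq2 1.42.0, limma-voom (limma 3.58.1), 2-group fits, a replicate block and leaving out each library.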

Additional observations from a re-analysis of the deposited data

How the results depend on the processing

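Under the 15 alternatives no member changed sign against untreated skin. Leaving out 1 library at a time changed how many members passed, and how many of all genes did. The member medians then ran from 2.68 to 3.11 with gefitinib, 1.58 to 2.72 with afatinib and 2.18 to 2.84 for their mean. Each such fit has 1 library in a group, which is assumed to vary like the others. With afatinib, limma-voom called 0 and the fit on the groups compared alone called 0, beside 27 in the fit over all 6 libraries. Over all genes 32, 44 and 591 rose in these fits. The mean of both inhibitors uses all groups, so it has no fit of that kind. With library size only, without TMM, the median log2 fold change of all genes moved by 0.68 for gefitinib and 0.62 for afatinib, and the member medians were 3.51 and 2.94, so relative to all genes they moved little; 38 and 36 members rose, and over all genes 3071 rose and 191 fell with gefitinib, against 2013 and 893 with TMM. For afatinib against gefitinib, Cdc25c, at 0.11, turned to -0.12 without gefitinib replicate 1 and to -0.55 without afatinib replicate 2, in a range of -0.55 to 0.55 over libraries left out, and it passed in none. Without afatinib replicate 1, 8 members changed sign in that comparison, in a range of -0.82 to 0.57 over the 39. The cause was not tested.

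The replicate numbers are shared between groups, but the labels tie them to no common animal, litter or day, and the differences between replicates 1 and 2 correlated across genes at 0.0331, 0.0374 and -0.174 between the 3 pairs of groups. With a replicate block, 37, 21 and 37 members rose with gefitinib, afatinib and their mean, and 0 passed between the drugs. Depth limits the least abundant members, of which Melk had the lowest count in a single library, 14 in untreated replicate 1. Racgap1, which passed with neither drug, had 17 and 66 counts in the untreated libraries.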
